A study of Mus musculus with 10 samples.

Results

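The cells described here are retinal ganglion cells (RGCs) of the adult mouse that carry the transcription factor Foxp2, the gene for which the F-type RGCs are named. They were chosen from the single cell RNA-seq counts by a gate on 4 genes. A cell was taken as an F cell where it held at least 2 Foxp2 unique molecular identifiers (UMIs, counted molecules), at least 1 Foxp2 UMI per 10000 UMIs, and under 1 UMI per 10000 of each of Opn4, Eomes and Tbr1. The gate returned 451 F cells of 2871 cells, with 327 of 1683 uninjured cells and 124 of 1188 injured cells. The remaining 2420 cells of the same libraries are called the other cells.

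RGCs send the axons of the optic nerve and fall into many types that differ in dendrites, light response and gene expression. Foxp2 encodes a forkhead repressor that acts as a dimer with itself or with its relatives Foxp1 and Foxp4. F-type RGCs are small and medium-sized ON and OFF cells, most of which also carry the POU homeobox factor Pou4f1 (Brn3a), and only some F types carry Foxp1. Opn4 and Eomes mark the melanopsin RGCs, and Tbr1 marks another set of RGC types. The gate set an upper limit on these 3 genes, which left out 1 cell that passed on Foxp2.

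RGCs of 129S1/SvImJ mice, of both sexes by the study's account, were profiled at 12 weeks of age (postnatal day 84). They were either uninjured or taken 2 weeks after optic nerve crush (ONC), which severs RGC axons. Each library came from 10 pooled retinas with 6000 cells loaded, so the spread between libraries is a spread between pools and not between animals. There were 6 uninjured and 4 injured libraries, with 98 to 651 uninjured cells and 273 to 527 injured cells each. A total of 421 of the 471 barcodes of the fourth injured library also stood in the third. These 421 were counted once, from the third library, and both libraries entered as 1 sample (injured 3/4), so that n = 6 uninjured and n = 3 injured samples. Some libraries of a group resembled each other, and a run with similar libraries summed is given at the end. Called in each library on its own, the shared barcodes were F cells in both libraries in 34 cases, in the third alone in 5, in the fourth alone in 2, and in neither in 380. The median depth was 20437 to 34337 UMIs per cell in uninjured libraries and 11257 to 14695 in injured libraries, and the F cells of a sample summed to between 322250 and 4587117 UMIs. The deposited table also has a row for mCherry, which was at 0 in all uninjured cells and was detected in 2.70%, 8.82% and 71.7% of the F cells of injured 1, injured 2 and injured 3/4. Xist, which is transcribed in female cells, had a UMI in no F cell of the 6 uninjured samples or of injured 3/4 (at most 0.593% of other cells), and in 70.3% and 50% of F cells of injured 1 and injured 2. The study used mice of both sexes, and the part of Xist-bearing cells in the injury comparisons was measured only by leaving out cells with an Xist UMI.

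F cells stood well apart from the other cells in Foxp2, the gene of the gate, which is given as a description. Foxp2 lies at chr6:14901287-15441976 on the plus strand (mm39). Uninjured F cells held a median of 5.75 Foxp2 UMIs per 10000 (range 1.02 to 21.6), and injured F cells a median of 3.65 (range 1.18 to 15.9). Of the other cells, 2306 had no Foxp2 UMI, 87 had 1, 26 had at least 2 but under 1 per 10000, and 1 was left out by Opn4 alone. Just inside the gate, 57 F cells had under 2 UMIs per 10000 and 53 had under 4 UMIs. A Foxp2 UMI was found in 2 of 97 uninjured cells with Opn4 or Eomes (2.06%, exact binomial 95% interval 0.251% to 7.25%, median 29760 UMIs per cell) and in 1 of 48 injured ones (2.08%, interval 0.0527% to 11.1%, median 14790 UMIs). Intervals and floors throughout cover counting error only.

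**Figure D1:**
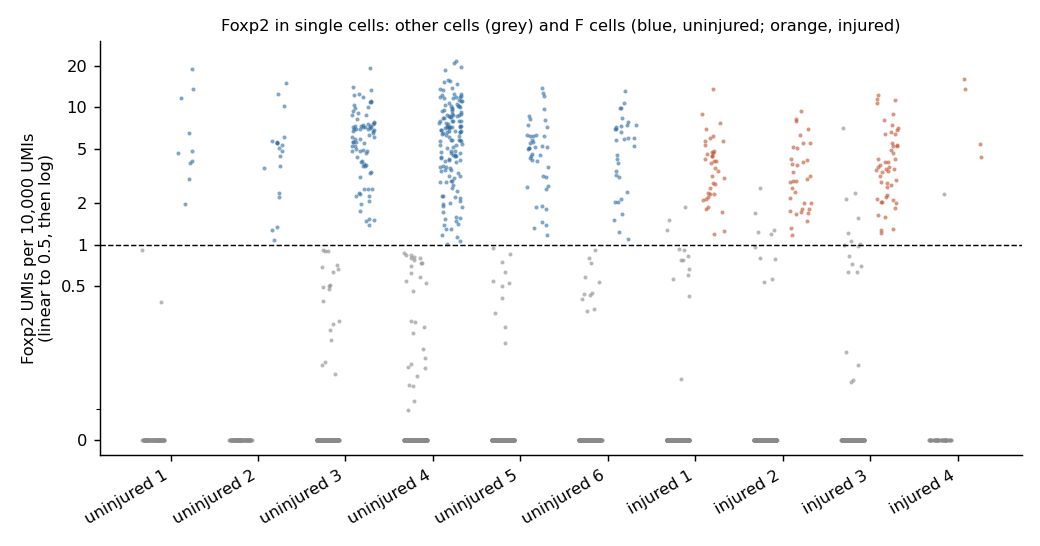
Foxp2 UMIs per 10000 UMIs in each cell of the 10 libraries, with the shared barcodes counted once; the vertical axis is linear to 0.5 and logarithmic above, and the dashed line marks 1 per 10000. F cells (blue, uninjured; orange, injured) spread from 1.02 to 21.6, while 2306 of the 2420 other cells (grey) lie at 0, and grey points above the line hold 1 Foxp2 UMI, apart from 1 cell left out by Opn4.

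The label was checked against the markers. Pou4f1 (chr14:104699112-104705504, minus strand) was detected in 99.0% ± 2.1 of uninjured F cells (SD, n = 6) against 91.0% ± 2.6 of other cells, at median depths of 26290 and 28307 UMIs per cell. Rbpms, Slc17a6, Sncg and Tubb3, which mark RGCs as a class, had a UMI in 100% of F cells and of other cells in every sample. The study kept cells that carried these 4 genes, so this detection does not check the F label. The summed level of the whole pan-RGC marker list was nonetheless lower in F cells than in other cells in 9 of 9 samples (mean 6136 against 6789 CPM, counts scaled to the same library total, in uninjured samples; paired exact permutation p = 0.00391, the smallest for 9 pairs). Of other retinal classes, summed amacrine markers were higher in F cells in 4 of 9 samples (exact p = 0.707), Müller glia markers were lower in 8 of 9 (exact p = 0.00781), and horizontal cell markers, a list that holds Calb1, were lower in 9 of 9 (exact p = 0.00391). Rod markers in F cells ranged from 1.40 to 7.60 CPM in uninjured and were 15.6, 124 and 17.8 CPM in injured 1, 2 and 3/4. Summed Opn4/Eomes RGC markers in F cells had a mean of 27.8 CPM before and 107.5 CPM after injury, with no overlap (exact p = 0.0238), and Müller glia markers 154 and 274 CPM (exact p = 0.0476). The Opn4/Eomes list is Opn4, Eomes, Tbx20 and Adcyap1. The gate limits Opn4 and Eomes, and Adcyap1 rose after injury both in F cells and in the other cells, so this sum does not check the F label. Without cells that held markers of another retinal class, 2039 of 8116 genes tested passed the injury comparison within F cells given below. Of the 2342 genes called in the main comparison and tested in that run, 1924 remained with the same sign. At least 3 such markers were held by a mean of 25.6% of F cells and 46.7% of other cells in uninjured samples. In injured samples the means were 28.3% and 24.97%. The share was higher in F cells in 1 of 9 samples (paired exact permutation p = 0.0352). Without these cells, 653 of the 935 tested calls for F against other uninjured cells remained with the same sign. For the difference in injury response, 82 of 152 tested calls remained. The part of each marker group on its own was not tested. Median UMIs per cell were higher in F cells than in other cells in 4 of 9 samples (exact p = 0.75). The mitochondrial share was lower in F cells in 8 of 9 samples (exact p = 0.0234), and the ribosomal protein share in 7 of 9 (exact p = 0.0273), with means of 3.11% against 3.45% in uninjured and 3.92% against 5.72% in injured samples. The part of the mitochondrial share in the comparison of F with other uninjured cells was measured only with a limit of 10% per cell. Of the 1036 genes called in that comparison and tested under the limit, 1006 remained with the same sign. The part of the ribosomal protein share was not tested.

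The share of F cells was 10.2%, 18.4%, 21.8%, 22.3%, 15.7% and 15.9% in uninjured 1 to 6. It was 10.9% in injured 1, 12.5% in injured 2 and 9.19% in injured 3/4. The mean was 17.4% ± 4.5 (SD, n = 6) in uninjured and 10.9% ± 1.6 (n = 3) in injured samples, a difference of −6.53 percentage points that missed the threshold (exact two-sided permutation p = 0.0714, with 0.0238 the smallest p that 6 against 3 allows). The groups overlapped through uninjured 1, which had 10 F cells of 98. Without uninjured 1 the difference was −7.96 points (exact p = 0.0357). Injured cells were shallower, which bears on a gate that asks for 2 UMIs. With every cell thinned to 8000 UMIs the share was 14.4% ± 3.9 against 7.48% ± 1.7 (exact p = 0.0476), and with a stricter gate of 4 UMIs and 2 per 10000 the difference was −8.92 points (exact p = 0.0238). On cells with no mCherry UMI it was −3.87 points and on cells with no Xist UMI −5.12 points (exact p = 0.214 for each). A smaller share of F cells and less Foxp2 RNA per F cell cannot be told apart by this gate.

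**Figure D2:**
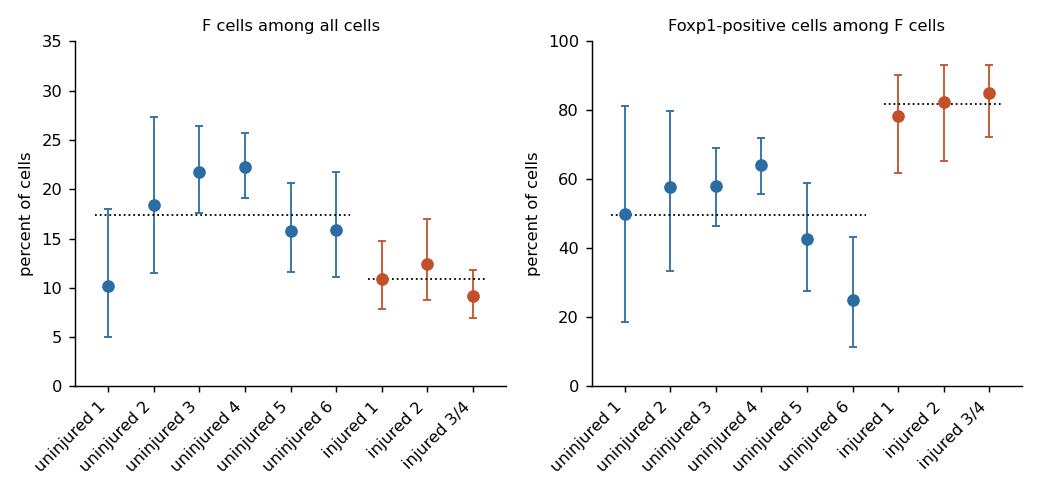
Percent of all cells that were F cells (left) and percent of F cells that were Foxp1-positive (right) in each sample, with exact binomial 95% intervals; dotted lines are group means. The F share overlapped between uninjured (17.4%) and injured (10.9%) samples through uninjured 1 (10.2%), whereas all 3 injured samples (78.4% to 84.9%) had a higher Foxp1-positive share than all 6 uninjured ones (25% to 64.1%).

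Which genes set F cells apart from the other RGCs of the same retinas was asked first in the uninjured libraries, on UMI counts summed over the F cells and over the other cells of each library. F cells differed from the other cells in 1039 of 13294 genes tested (7.82%, edgeR adjusted p under 0.05), of which 447 were higher (3.36%) and 592 lower (4.45%). The 4 genes of the gate were left out of the test. The count fell to 627 without uninjured 4 and to 617 on cells thinned to 8000 UMIs. F cells carried more of several glutamate receptor subunits and less of others, almost no calbindin (Calb1), few transcripts of the Iroquois factors Irx3, Irx5 and Irx6, and more Pvalb, Isl2 and Irx4. Levels below are CPM of summed counts, scaled by TMM factors, and differences are log2 with their standard error.

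Glutamate and GABA receptors differed in both directions. The transmitter receptor list gave 13 higher and 14 lower of 49 tested, with a median log2 difference of −0.18 beside −0.03 over all genes. Grin3a, an NMDA receptor subunit that lowers calcium entry, was at 72.2 to 606 CPM (median 189.7) in F cells and 32.0 to 54.3 CPM (median 42.9) in other cells (log2 difference 2.22 ± 0.37, adjusted p = 0.00998). It was higher in F cells in 6 of 6 libraries, and uninjured 1, with 10 F cells, was the highest. Grin2a, a glutamate-binding subunit of the same receptor, went the other way, at 31.4 to 75.2 CPM (median 46.0) in F cells and 181 to 398 CPM (median 263) in other cells (log2 difference −2.41 ± 0.13, adjusted p = 7.32e-13), with no overlap. The AMPA receptor subunits Gria1 (2.01 ± 0.35), Gria2 (0.62 ± 0.09), Gria3 (0.53 ± 0.11) and Gria4 (0.61 ± 0.12) were all higher in F cells. Gria1 ranged widely, from 40.8 to 744 CPM (median 217) in F cells against 34.4 to 70.3 CPM (median 58.1) in other cells. Grik3, a kainate receptor subunit, was at 31.4 to 139 CPM (median 68.0) in F cells and 14.4 to 28.6 CPM (median 21.2) in other cells (log2 difference 1.68 ± 0.14, adjusted p = 2.15e-09), and Neto2, an auxiliary subunit of kainate receptors, was at 168 to 530.3 CPM (median 337) in F cells and 45.3 to 84.1 CPM (median 68.4) in other cells (log2 difference 2.20 ± 0.12, adjusted p = 6.81e-11). Both were higher in F cells in 6 of 6 libraries. Among GABA type A receptor subunits Gabrb2 (0.64 ± 0.09) was higher. Gabra2 (−0.84 ± 0.11), Gabra3 (−0.67 ± 0.17), Gabra4 (−2.70 ± 0.22), Gabrb1 (−2.18 ± 0.25), Gabrg1 (−0.91 ± 0.17) and Gabrg3 (−1.20 ± 0.24) were lower. The nicotinic subunits Chrna3 (−3.03 ± 0.25), Chrna6 (−0.78 ± 0.11) and Chrnb2 (−0.51 ± 0.14) were lower too, as was Lypd6, a membrane-anchored modulator of nicotinic receptors (log2 difference −2.40 ± 0.22, adjusted p = 7.32e-06). The calls of Grin3a and Gria1 were lost without uninjured 4, the library with most F cells (adjusted p = 0.0605 and 0.0642).

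The list of calcium-binding proteins and neuropeptides gave 2 higher and 9 lower of 31 tested (median log2 difference −0.47). Calb1, a calcium buffer, was at 0 to 7.17 CPM (median 3.88) in F cells and 8.11 to 168 CPM (median 116) in other cells (log2 difference −4.31 ± 0.18, adjusted p = 6.53e-15). Every sum of F cells was below the lowest sum of other cells. Pvalb, another calcium buffer, was at 241 to 698 CPM (median 308) in F cells and 20.8 to 235 CPM (median 106) in other cells (log2 difference 1.87 ± 0.35, adjusted p = 0.0174), higher in F cells in 6 of 6 libraries, although the call was lost without uninjured 4 (adjusted p = 0.0622). Necab2, an EF-hand protein, was 0.67 ± 0.10 log2 higher (adjusted p = 1.97e-05). The peptide genes Cck (−3.49 ± 0.42), Vip (−3.21 ± 0.37), Adcyap1 (−0.99 ± 0.16) and Nmb (−2.13 ± 0.50) were lower. Anxa2, a calcium-dependent membrane-binding protein, was at 51.2 to 177 CPM (median 87.9) in F cells and 10.8 to 53.3 CPM (median 23.7) in other cells (log2 difference 1.69 ± 0.21, adjusted p = 0.000392).

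The RGC identity transcription factors gave 4 higher and 9 lower of 24 tested (median log2 difference −0.07). Pou4f1, named with Foxp2 as a marker of these cells, was at 331 to 381 CPM (median 365) in F cells and 223 to 348 CPM (median 253) in other cells (log2 difference 0.48 ± 0.12, adjusted p = 0.0106). It was higher in F cells in 5 of 6 libraries, and the call was lost on cells thinned to 8000 UMIs (0.34, adjusted p = 0.0661) and without uninjured 3 (adjusted p = 0.0534). Its relative Pou4f2 did not pass the test (log2 difference 0.17 ± 0.10, adjusted p = 0.445), and Pou4f3 was lower (log2 difference −0.55 ± 0.14, adjusted p = 0.0118), a call lost under DESeq2 (adjusted p = 0.126) and without any 1 of uninjured 3 to 6. Isl2, a LIM homeobox factor, was at 24.1 to 86.3 CPM (median 44.8) in F cells and 9.69 to 57.8 CPM (median 22.4) in other cells (log2 difference 0.94 ± 0.13, adjusted p = 6.11e-06) and higher in F cells in 6 of 6 libraries, but the call was lost without cells that held markers of another retinal class (0.39, adjusted p = 0.126) and without the sample block (adjusted p = 0.339). Isl1 did not pass (log2 difference −0.01 ± 0.14, adjusted p = 0.998). Irx5 was at 3.14 to 6.93 CPM (median 5.61) in F cells and 37.9 to 80.4 CPM (median 54.9) in other cells (log2 difference −3.36 ± 0.16, adjusted p = 2.95e-14), so F cells did not overlap with the other cells. Irx3 (−3.06 ± 0.32), Irx6 (−6.37 ± 0.28), Ebf1 (−0.47 ± 0.10), Ebf2 (−2.24 ± 0.31), Onecut1 (−1.43 ± 0.23) and Onecut2 (−0.82 ± 0.15) were also lower, while Irx4 (0.70 ± 0.11) and Ebf4 (0.67 ± 0.19) were higher.

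Foxp relatives and partners were read next. Foxp1 (chr6:98902299-99499685, minus strand) did not pass in uninjured libraries, at 51.8 to 439.9 CPM (median 214) in F cells and 76.5 to 130.4 CPM (median 116) in other cells (log2 difference 0.94 ± 0.26, adjusted p = 0.0722), with F sums spread on both sides of the other cells. Without uninjured 6, where F cells had the lowest Foxp1, the difference passed (1.15, adjusted p = 0.000337), and it also passed on thinned cells (1.11, adjusted p = 1.37e-05). Foxp4 was lower in F cells (log2 difference −1.02 ± 0.22, adjusted p = 0.00205), at low levels of 4.71 to 12.1 CPM (median 7.38) in F cells, and its call was lost on thinned cells (adjusted p = 0.567). The list of Foxp relatives, partners and reported targets gave 3 higher and 3 lower of 17 tested (median log2 difference 0.09). Lmo4, a LIM-only transcription cofactor, was at 173 to 246 CPM (median 207) in F cells and 30.9 to 69.0 CPM (median 44.5) in other cells (log2 difference 2.13 ± 0.11, adjusted p = 4.43e-13) and did not overlap. Auts2 was higher (0.68 ± 0.12) and Vldlr, a reelin receptor, was lower (−0.80 ± 0.11).

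Adhesion and guidance genes were mostly lower among those that passed, with 9 higher and 19 lower of 74 tested (median log2 difference −0.16). Sema3a, a secreted semaphorin that repels axons, was at 0 to 17.7 CPM (median 10.0) in F cells and 33.2 to 101 CPM (median 90.8) in other cells (log2 difference −2.69 ± 0.15, adjusted p = 1.02e-12). Sema5a, a membrane semaphorin, was −2.18 ± 0.22 (adjusted p = 4.1e-05). Cdh6 (−2.56 ± 0.22) and Cdh11 (−1.56 ± 0.11), both classical cadherins, were lower, and the protocadherin Pcdh20 (3.16 ± 0.23), the netrin receptors Unc5c (0.97 ± 0.10) and Dcc (0.51 ± 0.12) were higher. Spon1, which encodes the matrix protein F-spondin, was at 69.3 to 184 CPM (median 108) in F cells and 15.4 to 40.0 CPM (median 21.9) in other cells (log2 difference 2.21 ± 0.13, adjusted p = 1.65e-10), with no overlap. Hs3st4, which sulfates heparan sulfate chains, was at 1.33 to 6.96 CPM (median 4.39) in F cells and 34.4 to 67.9 CPM (median 50.1) in other cells (log2 difference −3.46 ± 0.19, adjusted p = 4.43e-13). Sptssb, a small subunit of serine palmitoyltransferase (−3.11 ± 0.16), and Thsd7b (−2.11 ± 0.35) were lower. Tcerg1l was 1.61 ± 0.11 log2 higher.

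Voltage-gated channel genes were split evenly, with 8 higher and 8 lower of 56 tested (median log2 difference 0.03). Cacna1i, a T-type calcium channel, was higher (log2 difference 1.65 ± 0.13, adjusted p = 7.28e-10), as were Kcnd2 (1.20 ± 0.22) and Scn3a (0.30 ± 0.09). Kcnd3 (−0.87 ± 0.10), Kcnh1 (−2.10 ± 0.27) and Kcnn3 (−2.46 ± 0.46), all potassium channels, were lower. Markers of other RGC groups were lower more often than higher, with 3 higher and 14 lower of 34 tested (median log2 difference −0.85). The 3 that were higher were Pvalb, Trarg1 and Bnc2. Summed markers of alpha RGCs were higher in F cells in 3 of 9 samples (paired exact permutation p = 0.0547). Summed markers of direction-selective RGCs were higher in F cells in 4 of 9 samples (paired exact permutation p = 0.113). Neither sum passed. Spp1 and Zic1, which mark other RGC types, were at 0 in every library and at 0 to 0.211 CPM, respectively, in F cells, against 0 to 66.6 CPM (median 16.4) and 0 to 29.1 CPM (median 21.1) in other cells. The stress gene list gave 0 higher and 4 lower of 23 tested (median log2 difference −0.21), and the 4 that were lower were Fosl2, Dusp1, Nr4a1 and Nr4a3. None of the 12 Vo subunits of the vacuolar ATPase tested, the complex the study was about, passed in edgeR, with a median log2 difference of −0.10.

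**Figure D3:**
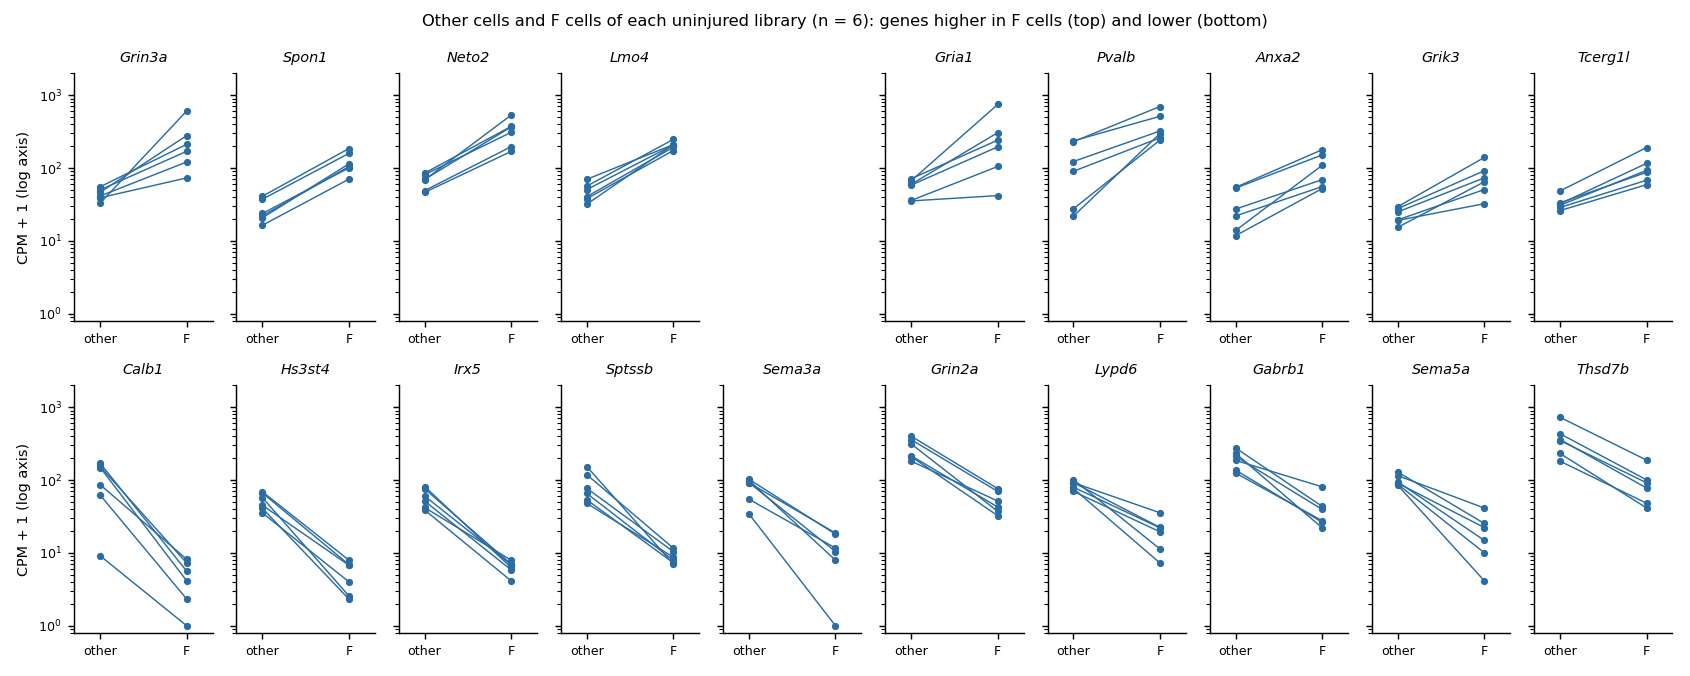
Level of genes among the 10 largest rises (top, 1 not shown) and 10 largest falls (bottom) that moved the same way in all 6 uninjured libraries, in the other cells and the F cells of each library (lines join cells of 1 library; log axis of CPM + 1). Every line slopes the same way by the rule that chose the genes. Calb1 in F cells lies at or under 7.17 CPM, and Lmo4 in F cells (173 to 246 CPM) varies little between libraries.

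F cells were not uniform. They were split by Foxp1 into Foxp1-positive cells, with at least 2 Foxp1 UMIs and 1 per 10000, and Foxp1-zero cells, with no Foxp1 UMI. Of uninjured F cells 181 were positive, 60 were at zero and 86 lay between, and of injured F cells the numbers were 102, 10 and 12. Both kinds were compared within the 7 samples that had at least 3 cells of each (uninjured 2 to 6, injured 2 and injured 3/4), with sample as a block and with Foxp1 and the gate genes left out. Of 5861 genes tested, 365 (6.23%) passed, 229 higher (3.91%) and 136 lower (2.32%) in the Foxp1-positive cells. In the positive cells, 10 of 53 adhesion and guidance genes tested were higher and 1 lower, 9 of 39 voltage-gated channel genes were higher and 0 lower, 6 of 32 transmitter receptor genes were higher and 1 lower, and the Iroquois factors Irx4 and Irx2 were higher in the Foxp1-zero cells.

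Isl1, a LIM homeobox factor, was at 139 ± 43.4 CPM in Foxp1-positive and 57.8 ± 34.4 CPM in Foxp1-zero sums (SD, n = 7), with a log2 difference of 1.71 ± 0.34 (adjusted p = 0.00904) and the positive cells higher in 6 of 7 samples. Irx4 was at 31.3 ± 24.7 CPM in Foxp1-positive and 116 ± 83.4 CPM in Foxp1-zero sums (SD, n = 7) (log2 difference −2.17 ± 0.24, adjusted p = 1.65e-05), lower in the positive cells in the 5 uninjured samples and at 0 in both kinds of cell in the 2 injured samples. Irx2 was −1.84 ± 0.35 (adjusted p = 0.00581). Meis2, a homeobox cofactor, was at 437 ± 191 CPM in Foxp1-positive and 39.9 ± 43.6 CPM in Foxp1-zero sums (SD, n = 7) (log2 difference 3.41 ± 0.58, adjusted p = 0.0202), although on thinned cells it was 0.82 (adjusted p = 0.456). Pou4f1 (0.20 ± 0.20, adjusted p = 0.592) and Pou4f2 (−0.10 ± 0.23, adjusted p = 0.828) did not pass. Cdh12, a classical cadherin, was at 149 ± 102 CPM in Foxp1-positive and 4.35 ± 5.77 CPM in Foxp1-zero sums (SD, n = 7) (log2 difference 4.33 ± 0.33, adjusted p = 1.5e-09). Dscaml1, an immunoglobulin adhesion molecule, was 3.15 ± 0.39 log2 higher, and Lrrc4c, the netrin-G ligand NGL-1, was 3.56 ± 0.52. The adhesion list gave 10 higher and 1 lower of 53 tested (median log2 difference 0.41). The channel list gave 9 higher and 0 lower of 39 tested (median log2 difference 0.37), among them Kcnb2 (1.96 ± 0.31) and Kcnc2 (0.90 ± 0.21). Grin3a (2.44 ± 0.37), Gria1 (1.67 ± 0.24) and Grm7 (1.22 ± 0.21) were among the receptors that were higher (6 of 32 tested, with 1 lower). The peptide gene Gal, which encodes galanin, was at 135 ± 136 CPM in Foxp1-positive and 15.9 ± 23.3 CPM in Foxp1-zero sums (SD, n = 7) (log2 difference 2.54 ± 0.37, adjusted p = 0.000225), higher in 7 of 7 samples. Genes lower in the positive cells included Lmo1, a LIM-only cofactor (log2 difference −1.40 ± 0.21, adjusted p = 9.56e-05), and Nrgn, which encodes the calmodulin-binding protein neurogranin (−1.39 ± 0.29).

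The genes higher in the positive cells were long and those higher in the zero cells were short. The median genomic length was 296.7 kb and 7.93 kb, against 41.0 kb over the genes tested (matched by symbol for at least 98.8% of each set). Lengths differed in the other comparisons too. For F against other uninjured cells the medians were 91.9 kb (higher) and 73.7 kb (lower), against 29.0 kb tested. For the difference in injury response they were 130.6 kb (more positive) and 75.5 kb (more negative). For injury within F cells they were 51.6 kb (rose) and 29.3 kb (fell), against 34.6 kb tested. Whether intronic reads were counted is not known, and its part in these lengths was not tested. The ribosomal protein share moved with the Foxp1 split. Its median over cells was 2.35% in uninjured Foxp1-positive and 4.09% in Foxp1-zero cells, and median UMIs per cell were 28123 and 23632. In injured 2 the ribosomal share was 3.97% against 7.67% and the depth 14254 against 7872 UMIs, and in injured 3/4 they were 1.09% against 7.88% and 12145 against 11293 UMIs. Of the 365 calls, 189 were tested on cells thinned to 8000 UMIs, and 81 of them remained with the same sign. The part of the ribosomal protein share in the comparison was not tested. The zero sums held 3 to 18 cells per sample, and the count of calls fell to 123 without uninjured 3, to 136 without uninjured 4 and to 243 without uninjured 2.

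The Foxp1-positive share of F cells was 50%, 57.9%, 58.2%, 64.1%, 42.9% and 25% in uninjured 1 to 6. It was 78.4% in injured 1, 82.4% in injured 2 and 84.9% in injured 3/4. All injured samples lay above all uninjured ones, with a mean of 49.7% ± 14.2 (SD, n = 6) against 81.9% ± 3.3 (n = 3), a difference of 32.2 points (exact permutation p = 0.0238, the smallest possible here). On cells thinned to 8000 UMIs the shares were 37.3% ± 16.7 and 67.5% ± 8.3 (exact p = 0.0476), and the groups overlapped. The same share among the other cells was 43.9% ± 10.4 in uninjured and 56.1% ± 5.5 in injured samples (exact p = 0.0714), and 22.1% ± 8.7 against 40.2% ± 4.7 on thinned cells (exact p = 0.0238). The Foxp1 level rose in the other cells (log2 fold change 0.89 ± 0.17, adjusted p = 0.00124), did not pass in F cells (log2 fold change 1.01 ± 0.42, adjusted p = 0.0887), and the difference between these responses did not pass either (interaction 0.30 ± 0.42, adjusted p = 0.902). A change in the mix of F cells and a change of Foxp1 within them cannot be told apart here. The injury comparison that follows was therefore also made on Foxp1-positive F cells alone, a choice made after the data were seen, where 1995 of 7965 genes passed, and 1880 of the 2322 calls from all F cells that were tested there remained with the same sign.

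What ONC changed within F cells was asked on the 9 sums of F cells. Of 9449 genes tested, 2656 passed (28.1%), with 1264 higher (13.4%) and 1392 lower (14.7%) after injury, and the samples did not overlap for 29.1% of genes. On cells thinned to 8000 UMIs fewer genes could be tested, and 1415 of 5345 passed. Most of the axon injury response list rose, and transmitter receptors, voltage-gated channels and members of the RGC identity list fell more often than they rose. In the other cells, whose sums are deeper, 6062 of 13901 genes passed (43.6%). Per sample, F cells had a median depth between 20323 and 31189 UMIs before injury and between 12157 and 18670 after it, and median Malat1 shares were 1.73% to 4.02% and 6.47% to 7.65%. Of the 2656 calls, 1648 were tested on cells thinned to 8000 UMIs, and 1272 of them remained with the same sign. On cells with 10000 to 40000 UMIs, 2378 of the 2572 calls tested remained with the same sign. The part of the Malat1 share in the gene changes was not tested.

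Of the axon injury response list, 25 rose and 3 fell of 36 tested (median log2 fold change 2.44, against −0.05 over all genes). Atf3, a stress-induced transcription factor, was at 0 to 3.14 CPM (median 0.184) before injury and 851, 937 and 713 CPM after it (log2 fold change 10.23 ± 0.40, adjusted p = 1.86e-09). Ecel1, a neuronal metallopeptidase induced by nerve damage, had no UMI in any uninjured F cell and was at 1049, 939 and 553 CPM in injured ones, at least 2717-fold higher over a floor of 3 UMIs in the uninjured group (adjusted p = 1.66e-07). Sprr1a, a small proline-rich protein known from regenerating neurons, was also at 0 in uninjured F cells and at 613, 383 and 418 CPM after injury, at least 1594-fold higher (adjusted p = 1.25e-07). All 3 genes were therefore near or at 0 in every uninjured sample and high in every injured one. Hrk, a BH3-only death gene, was at 0 to 1.16 CPM (median 0.211) before injury and 149, 185 and 204 CPM after it (log2 fold change 8.02 ± 0.34, adjusted p = 2.06e-09). Bcl2l11, which encodes the BH3-only protein Bim, was at 0 to 1.48 CPM (median 1.000) before injury and 89.6, 123 and 115 CPM after it (log2 fold change 6.65 ± 0.32, adjusted p = 4.36e-09). Jun (2.65 ± 0.26), Sox11 (5.41 ± 0.26), Ddit3 (3.64 ± 0.21), Gap43 (2.44 ± 0.21) and Gadd45a (5.01 ± 0.28) rose, while Sox4 (−3.21 ± 0.50), Mapk10 (−0.94 ± 0.22) and Nmnat2 (−0.88 ± 0.25) fell.

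Other large rises were of varied function. Mmp12, a matrix metalloproteinase, had 1 UMI in the uninjured F cells in all and was at 116, 106 and 175 CPM after injury, a ratio of 1392 with a 95% counting interval from 248 upwards. Ifit1, an interferon-induced gene, likewise had 1 UMI and then 103, 175 and 48.6 CPM. Tnfrsf12a, the TWEAK receptor, was at 0 to 4.62 CPM (median 1.84) before injury and 594, 507 and 381 CPM after it (log2 fold change 7.72 ± 0.32, adjusted p = 2.06e-09). Phgdh, the first enzyme of serine synthesis, was at 0 to 7.85 CPM (median 0.975) before injury and 204, 249 and 155 CPM after it (adjusted p = 6.45e-08), and Clic4, an intracellular chloride channel protein, rose by 7.26 ± 0.43. The groups overlapped for none of the 10 genes with the largest rises, which the naming rule required.

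The list of neuropeptides and calcium-binding proteins gave 7 higher and 10 lower of 21 tested, with members of both kinds in each direction. Crh, which encodes corticotropin-releasing hormone, was at 0 to 1.57 CPM (median 0.184) before injury and 107, 136 and 116 CPM after it (log2 fold change 7.46 ± 0.35, adjusted p = 4.36e-09). Gal was at 12.1 to 62.8 CPM (median 35.2) before injury and 133, 347 and 191 CPM after it (log2 fold change 2.59 ± 0.35, adjusted p = 7.24e-05). Tac1 (1.42 ± 0.33), Adcyap1 (2.07 ± 0.32), Scg2 (1.14 ± 0.22) and Vgf (3.20 ± 0.58), which encode other neuropeptides or granins, also rose, as did S100a10 (1.06 ± 0.27), of the S100 family. The peptide gene Cartpt (−2.58 ± 0.48) and the granins Chga (−1.24 ± 0.28) and Chgb (−0.96 ± 0.26) fell. Pvalb was at 241 to 698 CPM (median 308) before injury and 14.5, 10.6 and 9.26 CPM after it (log2 fold change −5.10 ± 0.49, adjusted p = 3.55e-06), Necab2 at 128 to 356 CPM (median 199.5) before injury and 1.45, 10.6 and 0 CPM after it (log2 fold change −6.14 ± 0.67, adjusted p = 1.08e-05), and Hpca, which encodes hippocalcin, at 202 to 491 CPM (median 257) before injury and 4.34, 10.6 and 4.63 CPM after it (log2 fold change −5.70 ± 0.54, adjusted p = 2.95e-06). Pvalb, Necab2 and Hpca were thus high in every uninjured sample and near 0 after injury. Nrgn, which encodes neurogranin, was at 290.5 to 1009 CPM (median 333) before injury and 4.34, 6.39 and 3.47 CPM after it (log2 fold change −6.85 ± 0.69, adjusted p = 5.03e-06).

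The list of identity factors gave 4 higher and 10 lower of 19 tested (median log2 fold change −1.58), and the lower members include Rbpms and Rbpms2, which are RNA-binding proteins and not transcription factors. Pou4f1 was at 331 to 381 CPM (median 365) before injury and 78.0, 143 and 120.3 CPM after it (log2 fold change −1.69 ± 0.23, adjusted p = 8.6e-05), and no injured sample reached the lowest uninjured one. A Pou4f1 UMI was held by 99.0% ± 2.1 of F cells before and 74.8% ± 3.9 after injury, or by 90.4% ± 3.2 and 55.7% ± 7.1 on cells thinned to 8000 UMIs. Pou4f2 was at 45.2 to 89.4 CPM (median 74.9) before injury and 8.67, 19.2 and 10.4 CPM after it (log2 fold change −2.59 ± 0.33, adjusted p = 4.3e-05). Pou4f3 went the other way, at 30.2 to 43.9 CPM (median 34.8) before injury and 53.5, 53.2 and 56.7 CPM after it (log2 fold change 0.63 ± 0.20, adjusted p = 0.03), a small rise that was lost when any 1 of the injured samples was left out (adjusted p = 0.0648 to 0.0922) and on Foxp1-positive F cells alone (adjusted p = 0.36). Irx4 was at 65.1 to 118 CPM (median 72.8) before injury and 1.45, 0 and 0 CPM after it, with 1 UMI in all injured F cells (adjusted p = 6.96e-07). Isl2 fell (log2 fold change −2.20 ± 0.49, adjusted p = 0.00349), and Isl1 did not pass (log2 fold change −0.57 ± 0.21, adjusted p = 0.0528). Sox11 rose (5.41 ± 0.26), as did Klf7 (0.59 ± 0.20). Of the RGC class markers, Rbpms (log2 fold change −1.36 ± 0.25, adjusted p = 0.000929) and Sncg (log2 fold change −1.26 ± 0.35, adjusted p = 0.0142) fell, and Slc17a6, the vesicular glutamate transporter VGLUT2, did not pass (log2 fold change 0.24 ± 0.22, adjusted p = 0.455). Tubb3 missed the threshold (log2 fold change 0.89 ± 0.32, adjusted p = 0.0502). The call of Sncg was lost without injured 1 (adjusted p = 0.0931).

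Receptors and channels that passed mostly fell. Of the transmitter receptor list, 2 were higher and 22 lower of 42 tested (median log2 fold change −0.998). Those that fell included the AMPA subunits Gria2 (−1.44 ± 0.26), Gria3 (−2.44 ± 0.26) and Gria4 (−0.98 ± 0.26), the NMDA subunits Grin1 (−1.26 ± 0.22), Grin2a (−1.996 ± 0.41) and Grin2b (−1.60 ± 0.31), and the GABA subunit Gabrb2 (−0.93 ± 0.28). Gria1 did not pass, at 40.8 to 744 CPM (median 217) before injury and 425, 647 and 479 CPM after it (log2 fold change 0.95 ± 0.56, adjusted p = 0.228). The nicotinic subunits Chrna6 (−4.98 ± 0.41) and Chrnb3 (−3.72 ± 0.29) fell by more, and the metabotropic receptor Grm7 rose (0.94 ± 0.32). Of voltage-gated channels, 5 were higher and 21 lower of 50 (median −0.58). The axonal potassium channel Kcna2 (−3.14 ± 0.23) and the sodium channels Scn1a (−1.82 ± 0.24), Scn2a (−0.69 ± 0.21) and Scn8a (−1.39 ± 0.27) fell, and the calcium-activated potassium channel Kcnma1 rose (1.88 ± 0.24). Other large falls were of Ppp1r17, a phosphatase regulator that went from 62.0 to 154 CPM (median 86.4) to 0 in all 3 injured samples (at least 49.8-fold lower over a floor of 3 UMIs in the injured group), of Prlr, the prolactin receptor (0, 0 and 1.16 CPM after injury), and of Ly6h (−5.49 ± 0.59).

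The remaining lists are given here, beside 13.4% of all genes tested that rose and 14.7% that fell. Adhesion and guidance genes gave 14 higher and 22 lower of 68, with Cntnap4 (3.22 ± 0.36) among those that rose and Cntnap5a (−5.07 ± 0.41), Cntn6 (−3.05 ± 0.30) and Unc5d (−3.42 ± 0.42) among those that fell. Neurofilaments and structural proteins gave 2 higher and 9 lower of 21, with Nefl (−1.18 ± 0.24) and Ina (−1.14 ± 0.21) lower and the microtubule protein Map2 higher (2.63 ± 0.26). Immediate early and stress genes gave 4 higher and 2 lower of 13, with Egr1 higher (3.70 ± 0.50) and Fos lower (−4.71 ± 1.36). Genes linked in the field to survival of RGC groups gave 3 higher and 3 lower of 11. Of Foxp relatives, partners and targets, Cntnap2 (1.66 ± 0.23) and Vldlr (1.03 ± 0.21) rose and Mef2c (−1.46 ± 0.50) and Nptx1 (−3.81 ± 0.36) fell, of 14 tested. As 28.1% of all genes passed, nothing is read from this count. Cntnap2, Vldlr, Mef2c and Nptx1 also passed in the same direction in the other cells. Of 10 Vo subunits tested, Atp6v0e rose (log2 fold change 0.93 ± 0.30, adjusted p = 0.0295), a call lost under 7 alternatives, and the others did not pass, among them Atp6v0c at 1437 to 2594 CPM (median 1589) before injury and 1354, 1326 and 1182 CPM after it (log2 fold change −0.57 ± 0.28, adjusted p = 0.147).

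**Figure D4:**
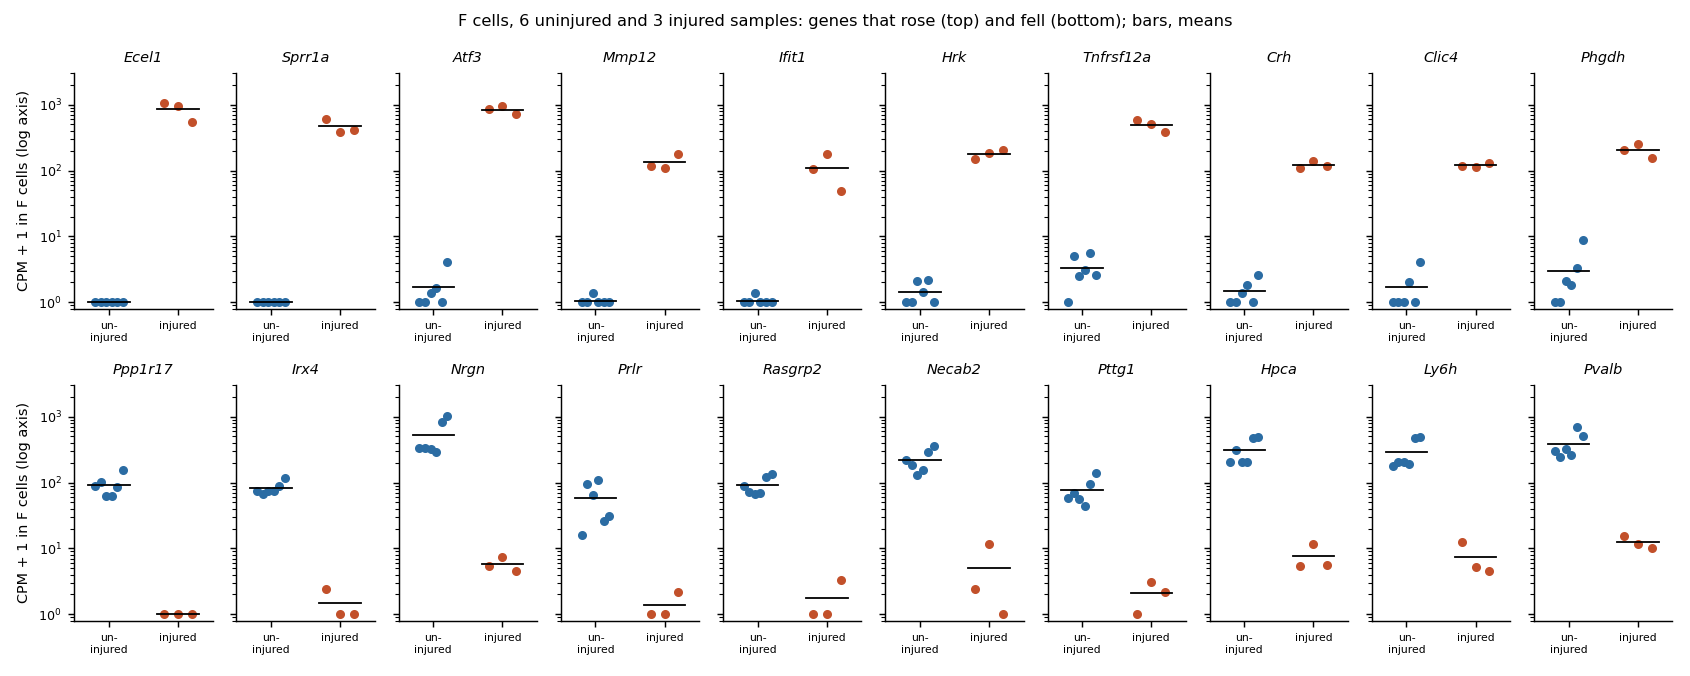
Level in F cells of the 10 genes with the largest rises (top) and the 10 with the largest falls (bottom) after ONC, in 6 uninjured and 3 injured samples (log axis of CPM + 1; bars are means). Ecel1 and Sprr1a were at 0 in all uninjured samples and at 383 CPM or more in injured ones, and Ppp1r17 was at 0 in all injured samples.

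The promoters of the 20 genes with the largest rises and falls in F cells were searched for the AP-1 motif, bound by Jun and Fos factors and by Atf3 heterodimers (TGANTCA, which also covers its reverse complement), in the RefSeq windows from 250 bases before to 50 after the start (GRCm38.p6; 17 of the 20 had an entry). Sprr1a was the only 1 of the 9 rising genes with an entry that held it, at 2 positions, and 1 of 8 falling genes with an entry, Necab2, held it too. The Sprr1a copies are shown here because Sprr1a was among the largest rises, from minus strand windows of chromosome 3 with the motif in capitals.
Sprr1a, chr3:92486010-92486038: ataactaaagcTGAGTCAgagggtgaact
Sprr1a, chr3:92485980-92486008: ggggaggagggTGAGTCAtaggtgactgg
These copies started 146 and 116 bases before the start. Over all genes, 6.06% of the 973 genes that rose in F cells and had an entry held the motif, 3.66% of the 1065 that fell, 4.13% of the 7475 tested and 7.93% of all 27025 promoters in the table. A match is a description of letters and not of binding. Of the 10 genes that were lowest and the 10 that were highest in uninjured F cells against other cells, 13 had an entry and none held the forkhead motif TGTTTAC on either strand, which 3.55% of all promoters held, 2.33% of those of the genes tested, 1.83% of the higher and 3.5% of the lower genes.

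Whether F cells responded to ONC differently from the other cells was tested as the difference between both responses within 1 fit. It passed for 154 of 13294 genes (1.16%), 87 with a more positive (0.654%) and 67 with a more negative (0.504%) response in F cells. The count was 101 without uninjured 6, 86 without injured 1, 61 without injured 3/4 and 11 without the sample block. Mgat4c and Ephb1 fell in F cells and did not pass in the other cells, Cntnap5a fell in both and more in F cells, Neto2 fell in F cells and rose in the other cells, and Rtl4 and Hs3st4 rose in F cells.

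Mgat4c, of a family that branches N-linked glycans, was at 952 to 1293 CPM (median 1082) uninjured and 354, 309 and 448 CPM injured in F cells, and 732 to 917 CPM (median 802) and 953, 769 and 954 CPM in the other cells (difference of responses −1.68 ± 0.15, adjusted p = 1.31e-07). Every injured F sample lay below the uninjured range, while injured other cells lay within it or just above. Ephb1, a receptor for ephrin-B, was at 58.1 to 154 CPM (median 114) uninjured and 18.8, 25.5 and 15.0 CPM injured in F cells, and 74.6 to 143 CPM (median 133) and 93.1, 93.1 and 66.1 CPM in the other cells (difference of responses −1.97 ± 0.23, adjusted p = 1.26e-05). Neto2, which set uninjured F cells apart, was at 168 to 530.3 CPM (median 337) uninjured and 136, 213 and 148 CPM injured in F cells, and 45.3 to 84.1 CPM (median 68.4) and 154, 138 and 111 CPM in the other cells (difference of responses −1.92 ± 0.21, adjusted p = 3.23e-05), so that after injury F and other cells lay close. Rtl4, a gene derived from a retrotransposon, was at 50.5 to 97.2 CPM (median 69.6) uninjured and 182, 181 and 172 CPM injured in F cells, and 32.1 to 44.5 CPM (median 37.4) and 21.8, 20.8 and 32.1 CPM in the other cells (difference of responses 1.85 ± 0.22, adjusted p = 4.39e-05). It rose in F cells and the lowest injured F sample was above the highest uninjured one. Hs3st4, nearly absent from uninjured F cells, was at 1.33 to 6.96 CPM (median 4.39) uninjured and 20.2, 51.1 and 32.4 CPM injured in F cells, and 34.4 to 67.9 CPM (median 50.1) and 52.9, 55.4 and 72.1 CPM in the other cells (difference of responses 2.56 ± 0.33, adjusted p = 4.15e-05). Cntnap5a, a contactin-associated adhesion protein, was at 83.2 to 193 CPM (median 167) uninjured and 7.23, 2.13 and 3.47 CPM injured in F cells, and 152 to 465 CPM (median 284) and 63.4, 76.7 and 46.6 CPM in the other cells (difference of responses −2.87 ± 0.40, adjusted p = 0.000148). The calls of Mgat4c and Rtl4 held under every alternative run, and those of Ephb1 and Neto2 under all but the fit without the sample block (adjusted p = 0.0872 and 0.0714). That of Hs3st4 was lost on cells with no Xist UMI (adjusted p = 0.354), on cells with 10000 to 40000 UMIs (0.136) and on thinned cells (0.0677), and that of Cntnap5a on thinned cells (0.167).

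Pmp22, a myelin and epithelial membrane protein, fell in F cells and did not pass in the other cells (−0.44, adjusted p = 0.215), with a difference between them (−2.18 ± 0.38, adjusted p = 0.00331). Nrgn fell in both, and more in F cells (difference −1.95 ± 0.45, adjusted p = 0.0262). Spata13, a guanine nucleotide exchange factor (1.74 ± 0.37), Mir670hg, a long noncoding RNA (1.63 ± 0.33), Bcl2l11 (1.62 ± 0.40) and Mmp12 (3.37 ± 0.78) were more positive in F cells. Of these 6 genes, all but Pmp22 lost the call when at least 1 of the injured samples was left out. Bcl2l11 and Mmp12 reached like levels in injured F and other cells (89.6, 123 and 115 CPM against 122, 128 and 138 CPM for Bcl2l11) from a lower uninjured level in F cells. For Mmp12 that level is 1 UMI over all uninjured F cells together, and its difference was 2.47 to 5.40 with 1 sample left out. Pou4f3 had a difference of 1.04 ± 0.26 (adjusted p = 0.0431), which was lost when any single injured sample was left out (adjusted p = 0.115 to 0.261). By list, adhesion and guidance genes held 1 more positive and 5 more negative of 74 tested, with the ephrin receptors Epha5 (−0.72 ± 0.15), Epha7 (−1.83 ± 0.40) and Ephb1 among the latter. Of voltage-gated channels Scn3a (0.83 ± 0.16) and Cacnb2 (1.17 ± 0.22) were more positive and Cacna1i (−1.68 ± 0.38) more negative. No transmitter receptor of 49 passed (edgeR). Pou4f1 fell in both kinds of cell (−1.69 ± 0.23 in F and −1.34 ± 0.20 in other cells), and the difference did not pass (−0.30 ± 0.23, adjusted p = 0.737).

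**Figure D5:**
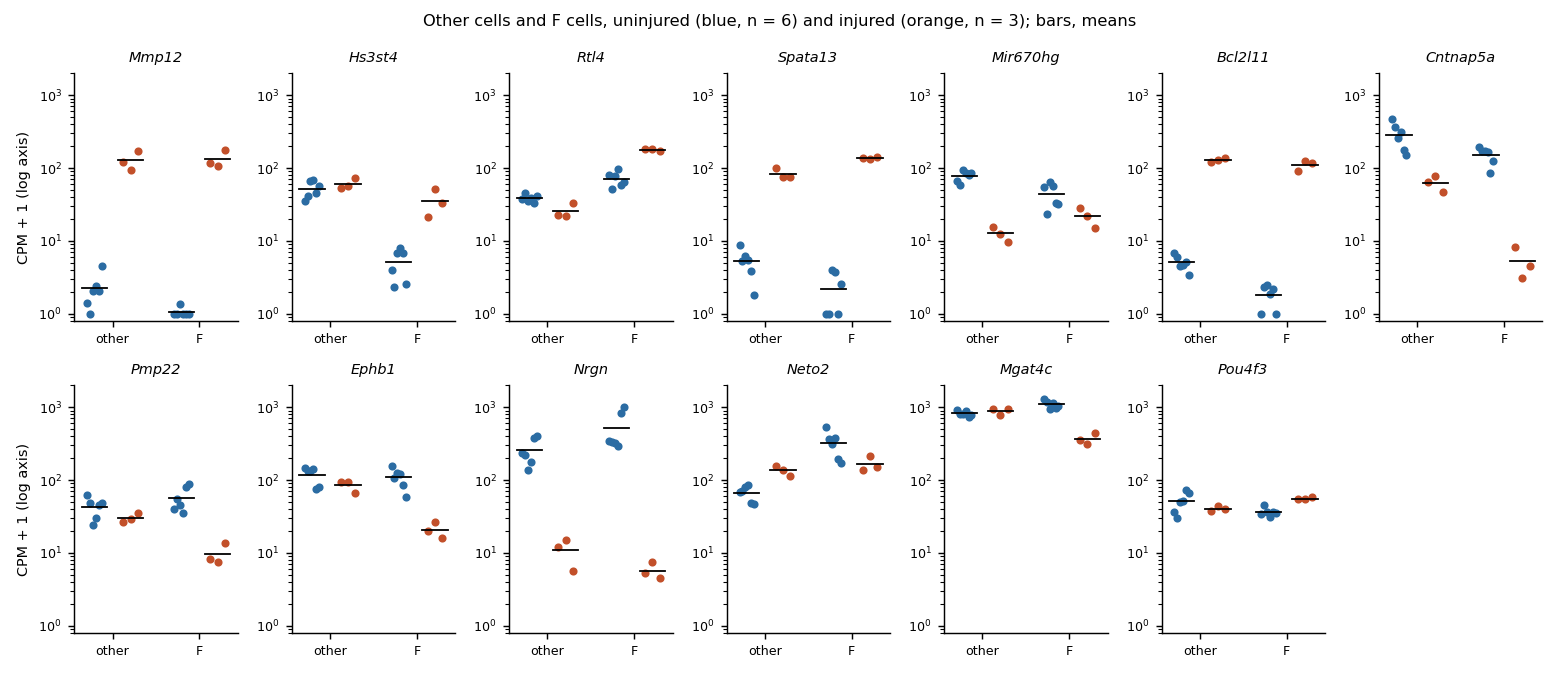
Levels in other cells and F cells, uninjured (blue, n = 6) and injured (orange, n = 3), of the 12 genes with the largest difference in injury response and of Pou4f3 (log axis of CPM + 1; bars are means). Mgat4c fell to 309 to 448 CPM in injured F cells while injured other cells were at 769 to 954 CPM, and Bcl2l11 and Mmp12 reached like injured levels in both.

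Fewer genes set F cells apart after injury, 463 of 13294 (3.48%), with 228 higher (1.72%) and 235 lower (1.77%). This contrast rests on 3 pairs of sums in place of 6, within the same fit. Of the 447 genes that were higher in uninjured F cells, 344 had the same sign after injury, 84 passed in the same direction and 4 in the opposite one, and their median log2 difference was 0.71 before and 0.41 after injury. Of the 592 lower genes the numbers were 472, 110 and 4, with medians of −0.91 and −0.47. These genes were chosen by the uninjured difference, and both comparisons share 1 fit, so these values are a description. Within F cells, 153 of the 377 higher genes that could be tested fell after injury and 39 rose, and of 385 lower genes 93 fell and 110 rose, beside 14.7% that fell and 13.4% that rose over all genes. The genes were chosen on the same uninjured F sums that this comparison starts from, so nothing is read from these counts. Irx5 stayed low, at 7.23, 4.26 and 4.63 CPM in injured F cells and 37.8, 28.9 and 31.2 CPM in injured other cells (log2 difference −2.60 ± 0.31, adjusted p = 4.26e-06). Grin2a was at 11.6, 25.5 and 6.94 CPM against 108, 96.8 and 92.2 CPM (log2 difference −2.92 ± 0.26, adjusted p = 1.39e-07), and Spon1 at 158, 66.0 and 198 CPM against 35.3, 32.8 and 31.6 CPM (log2 difference 2.09 ± 0.19, adjusted p = 5.09e-07). Pou4f1 no longer passed (log2 difference 0.19 ± 0.19, adjusted p = 0.713). The count fell to 243 without injured 2 and to 175 without injured 3/4, rose to 728 without uninjured 1, and was 245 on cells with no mCherry UMI.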

How the data were processed

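Single cell libraries of RGCs were sequenced by 10x droplet RNA-seq. The submitters' processing notes name Cell Ranger 7.0.1 and mm39, and the deposited values are raw UMI counts per gene and cell, filtered to cells by the authors. The study's methods name an older release of Cell Ranger with default settings. The sources differ, so whether intronic reads were counted is not settled. The F cells, gene lists and tests were chosen with earlier results of these data known. No doublet caller was run.

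Counts were summed over F cells and over other cells of each sample, giving 18 sums. Main tests used edgeR 4.0.16 (quasi-likelihood, TMM factors, Benjamini-Hochberg adjustment, filterByExpr) in R 4.3.3. Injury was tested in each kind of cell on its own sums, and F against other cells and the difference in response in 1 fit with sample as a block. Alternatives used DESeq2 1.42.0 and limma 3.58.1, other filters, gates and cells, and each sample left out in turn. Shares were compared by exact two-sided permutation tests over samples. The procedure was tested on simulated data. Python 3.11.15 was used.

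Genes named by rule were the 10 largest changes per direction (6 for the difference in response) past an adjusted p of 0.05 whose mean level reached a log2 CPM of 5 and, except for the difference in response, the same sign in every sample pair or no overlap between conditions, leaving out predicted and mitochondrial genes, plus fixed markers and up to 6 members of each list with the lowest p. Further members of receptor, channel, peptide and transcription factor families were named after their values were seen. The promoter search was also chosen with the results known. Each library pools 10 retinas, so p-values measure the spread between pools. A change in the number of cells of a type within the F cells and a change per cell cannot be told apart in sums. Same-strand overlaps with other annotated genes make the counts of Foxp1, Grin3a, Lmo4, Hs3st4, Prlr, Cdh12, Ephb1, Mgat4c and Rbpms uncertain. Sequences are from RefSeq promoter windows of GRCm38.p6, and gene positions from GENCODE on mm39. Values of a few genes are not reported here.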

Additional observations from a re-analysis of the deposited data

Results flagged for a closer look

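In 6 of 61 sets of uninjured F samples checked, 1 sample lay far from the other 5. Chance gives about 1 set in 20 for values with no ties, a rate that does not hold for genes with few UMIs. Gabrb1 was at 79.7 CPM in uninjured 3, with the next sample at 42.5 CPM. In uninjured 6, Atf3 was at 3.14 CPM (next 0.633), Clic4 at 3.14 CPM (next 1.06) and Phgdh, of serine synthesis, at 7.85 CPM (next 2.31). Mmp12 and Ifit1 were each at 0.369 CPM in uninjured 3, which is 1 UMI, and at 0 in the other uninjured samples, a pattern that meets the criterion for any gene with 1 UMI in all. All 5 of these injury-induced genes were far below their injured levels in that sample too.

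The injury response of F cells differed from that of the other cells (edgeR interaction, log2, adjusted p in parentheses) by 3.37 for Mmp12 (0.0281), 2.56 for Hs3st4 (4.15e-05), 1.85 for Rtl4 (4.39e-05), 1.74 for Spata13 (0.0118), 1.63 for Mir670hg (0.00866), 1.62 for Bcl2l11 (0.0396) and 1.04 for Pou4f3 (0.0431). It differed by −2.87 for Cntnap5a (0.000148), −2.18 for Pmp22 (0.00331), −1.97 for Ephb1 (1.26e-05), −1.95 for Nrgn (0.0262), −1.92 for Neto2 (3.23e-05) and −1.68 for Mgat4c (1.31e-07). The Mmp12 value rests on 1 UMI over all uninjured F cells together and was 2.47 to 5.40 with 1 sample left out.

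An mCherry UMI was found in 71.7% of F cells of injured 3/4 and in no uninjured cell. On cells with no mCherry UMI, 99 genes passed the test of the difference in response.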

How the results depend on the processing

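Among named results past the threshold, the direction held under every alternative run except for Adcyap1, whose difference in response went from 1.10 to −0.19 (adjusted p = 0.932) on cells thinned to 8000 UMIs. For injury within F cells, 2656 genes passed, and 1976 to 2763 with 1 sample left out. Fewer genes are tested with at least 10 counts in every sum, where 1249 of 5113 passed, and on thinned cells, where 1415 of 5345 passed. For F against other cells in uninjured libraries, 1039 passed, 421 with at least 10 counts, 617 on thinned cells, 500 with no sample block, and 627 to 1132 with 1 sample left out (the lowest without uninjured 4, and 1083 without injured 1). In injured libraries 463 passed, 790 with no filter on low counts, 306 with at least 10, 274 with the stricter gate, 1237 with injured 4 as its own sample (most of its barcodes being shared), 245 with no mCherry UMI, 238 with no Xist UMI, 78 with no sample block, and 175 to 728 with 1 sample left out (243 without injured 2). For the difference in response 154 passed, 326 with no filter, 84 with at least 10 counts, 265 with injured 4 as its own sample, 99 with no mCherry UMI, 82 with no Xist UMI, 11 with no sample block, and 61 to 230 with 1 sample left out (101 without uninjured 6, 86 without injured 1, 61 without injured 3/4). For the Foxp1 split 365 passed, 651 with no filter, 169 with at least 10 counts, 126 on thinned cells, and 123 to 399 with 1 sample left out. The higher Pou4f1 in uninjured F cells missed the threshold on thinned cells (0.34), with no Xist UMI (0.49) and with no sample block (0.46), and was 0.46 to 0.57 with 1 sample left out. The F share passed with the stricter gate (−8.92 points), on thinned cells (−6.92), without cells holding markers of another class (−12.2) and with injured 4 as its own sample (−7.09), did not pass with no mCherry UMI (−3.87) or no Xist UMI (−5.12), and was −7.96 to −5.55 with 1 sample left out. The Foxp1-positive share rose by 31.8 points with similar libraries summed (exact p = 0.2, the smallest possible) and by 27.3 to 35.1 with 1 sample left out (30.7 without injured 3/4, exact p = 0.0714). Beyond the construction of each alternative, the cause was not tested.

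Same-numbered libraries did not deviate together (correlations −0.13, −0.01 and −0.02), so the numbers do not pair samples. With a replicate block over libraries 1 to 3, 2383 genes passed for injury within F cells, against 2687 without it. The alternatives on mCherry, Xist, the sample block and Foxp1-positive cells alone were chosen after seeing the data. The 10 F cells of uninjured 1 sum to 322250 UMIs, so that 3 UMIs there are 9.08 CPM, and lower levels in that sample rest on under 3 UMIs.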
